A study of Mus musculus with 24 samples.

Results

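Genes for neural membrane proteins, namely Ly6h, Gpm6a, Gpm6b, Ptprz1, Chodl and Pmp22, were followed through neural differentiation of mouse embryonic stem cells that lacked the phosphatase genes Cdc14a, Cdc14b or both. They are 6 of the 17545 genes in the table, and were chosen by their measured levels in these libraries, for strong induction in neural differentiation, with Pmp22 as the contrast because it was higher at day 2 than at day 0 both in the double knockout and in wild type. The values of wild type and of the double knockout are therefore described with no test. The choice looked at all 24 libraries, so changes over the days are described without a test in the single knockouts too. Calls of the 6 genes over days are counted only in the closing section on processing, and support nothing. The tests of the 6 genes are between Cdc14b KO and Cdc14a KO. Those tests also use libraries that the choice looked at. Their p-values are for genes already chosen and are not independent of the choice. A short name for the set would be genes lost without both phosphatases, and the data did not bear that out for every gene. Pmp22 of the double knockout overlapped wild type at day 7. Ly6h, Gpm6a, Gpm6b, Ptprz1 and Chodl were at day 7 also lower than in wild type in both clones lacking Cdc14b alone. At that day both Cdc14b KO clones lay below both wild-type clones for 25.7% of 16158 genes with at least 10 normalized counts in 2 libraries.

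The groups were Cdc14ab KO (both genes knocked out), Cdc14b KO, Cdc14a KO and wild type, each with clones 1 and 3 at days 0, 2 and 7, which gave 24 libraries in 12 groups of 2. All lines were stem cells from blastocysts, grown on feeder cells in medium with LIF, and day 0 cells had been plated on gelatin to leave the feeders behind. Differentiation used N2B27 medium with EGF and FGF2, and on day 6 the cells were replated densely on laminin without those factors. The labels name no strain, sex, deletion site or way of deriving the clones. A limma p-value here therefore rests on the spread between the 2 clones of a group, pooled over all groups of the fit and moderated over genes. It does not measure the spread of the compared groups alone. Wild-type clone 3 at day 7 has a title and treatment for day 7 but a description as undifferentiated, and it was kept at day 7 by its title.

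Ly6h is a GPI-anchored member of the Ly6 and uPAR family, enriched in brain, that binds nicotinic acetylcholine receptors. Gpm6a and Gpm6b are closely related multipass membrane proteins, and Gpm6a promotes filopodia and neurite outgrowth. Ptprz1 is a receptor tyrosine phosphatase of neural progenitors and glia whose ligands include pleiotrophin and contactin. Chodl, chondrolectin, is a transmembrane protein with a C-type lectin domain and marks fast motor neurons in mouse. Pmp22 is a tetraspan protein of Schwann cell myelin that is also made in many cells outside nerve, and belongs with the epithelial membrane proteins of the EMP family. The phosphatases made from Cdc14a and Cdc14b reverse phosphorylation by cyclin-dependent kinases.

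All 6 genes are protein coding, and on GRCm38 the GENCODE annotation places them on 6 chromosomes. Ly6h lies on chr15:75551268-75567255, minus strand. The other genes are on the plus strand: Gpm6a at chr8:54954843-55060871, Gpm6b at chrX:166238911-166388988, Ptprz1 at chr6:22875502-23052916, Chodl at chr16:78930948-78951733 and Pmp22 at chr11:63128982-63159547.

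RefSeq promoters (build GRCm38.p6, 250 bases before to 50 bases after a start) matched 5 of the 6 genes, Ly6h having no entry. The 30 bases just before a start are shown with each CpG in capitals, plus strand, 5′ to 3′. These short stretches do not part CpG-rich from CpG-poor promoters: Chodl had 2 CpG in them, Gpm6b 3 and Pmp22 start 4 3.
Ptprz1, chr6:22875472-22875501: gCGCGtgcccagccCGgagCGCGtcccCGc
Gpm6b, chrX:166238913-166238942: ggcaCGgcCGgcccccagtgcaggCGgagc
Chodl, chr16:78930918-78930947: atatataagagagtgcCGccagCGcagagc
Gpm6a, start 2, chr8:54954698-54954727: ggcatttttgtaatgaatctgactgggtga
Pmp22, start 1, chr11:63128952-63128981: ataaactggaaagaCGcctaggacagcttc
Pmp22, start 4, chr11:63132773-63132802: tgtgagcctggCGcCGccCGctgagcctcc
Over the whole window of 300 bases, Ptprz1 had 29 CpG and Gpm6b 20, whereas Chodl had 6 and the 2 Gpm6a promoters 4 and 6. The 4 Pmp22 promoters had 3, 18, 20 and 30. The median of 32851 promoters was 7, with quartiles of 3 and 20, so the genes that were low in the double knockout at day 7 lay on both sides of it.

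Motifs were searched on both strands of these windows. The octamer ATTTGCAT of POU factors occurred in 1 member promoter, the first of Gpm6a, 90 bases before the start, and 1.74% of all promoters held it. The SOX-type motif ACAAAG occurred in the Gpm6b promoter, 65 bases before the start, and 18.7% of all promoters held it.
Gpm6a, start 1, octamer in capitals, chr8:54779333-54779362: aggaggaagacATTTGCATatggctcttca
Gpm6b, SOX-type motif in capitals, chrX:166238866-166238895: cgctccgggcgcACAAAGcccccggcgctg
The E-box CAGCTG was in none of the member promoters and in 16.3% of all promoters. The TATA motif TATAAA was found once, reversed, 211 bases before Gpm6a start 2, against 13.6% of all promoters.

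Libraries held 6422883 to 10856721 reads from 3′ transcript ends. Levels are normalized counts, reads divided by 1 size factor per library, and are not comparable between genes. Log2 differences and changes are on the log2(normalized count + 1) scale, which understates the change of low genes. Values written as fold are ratios of the mean normalized counts of groups. Reads of the ribosomal-like Gm42418 took 1.32% to 5.11% of 21 libraries but 8.70% in clone 1 of Cdc14ab KO at day 0, 7.97% in clone 3 of Cdc14b KO at day 0 and 10.8% in clone 1 of Cdc14a KO at day 2. Reads from 3′ ends did not check the knockouts: Cdc14b ranged over 101 to 325 normalized counts in Cdc14ab KO, 96.7 to 263 in Cdc14b KO, 137 to 288 in Cdc14a KO and 103 to 263 in wild type, and Cdc14a over 4.22 to 10.1, 4.37 to 15.4, 6.28 to 25.9 and 4.74 to 28.0 in the same order. Markers of the stem cell state changed with the days, the sum of 16 pluripotency markers being 35870 to 60762 normalized counts at day 0 and 12259 to 32381 at day 7. In these bulk samples fewer cells of a type and less RNA per cell cannot be told apart.

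**Figure D1:**
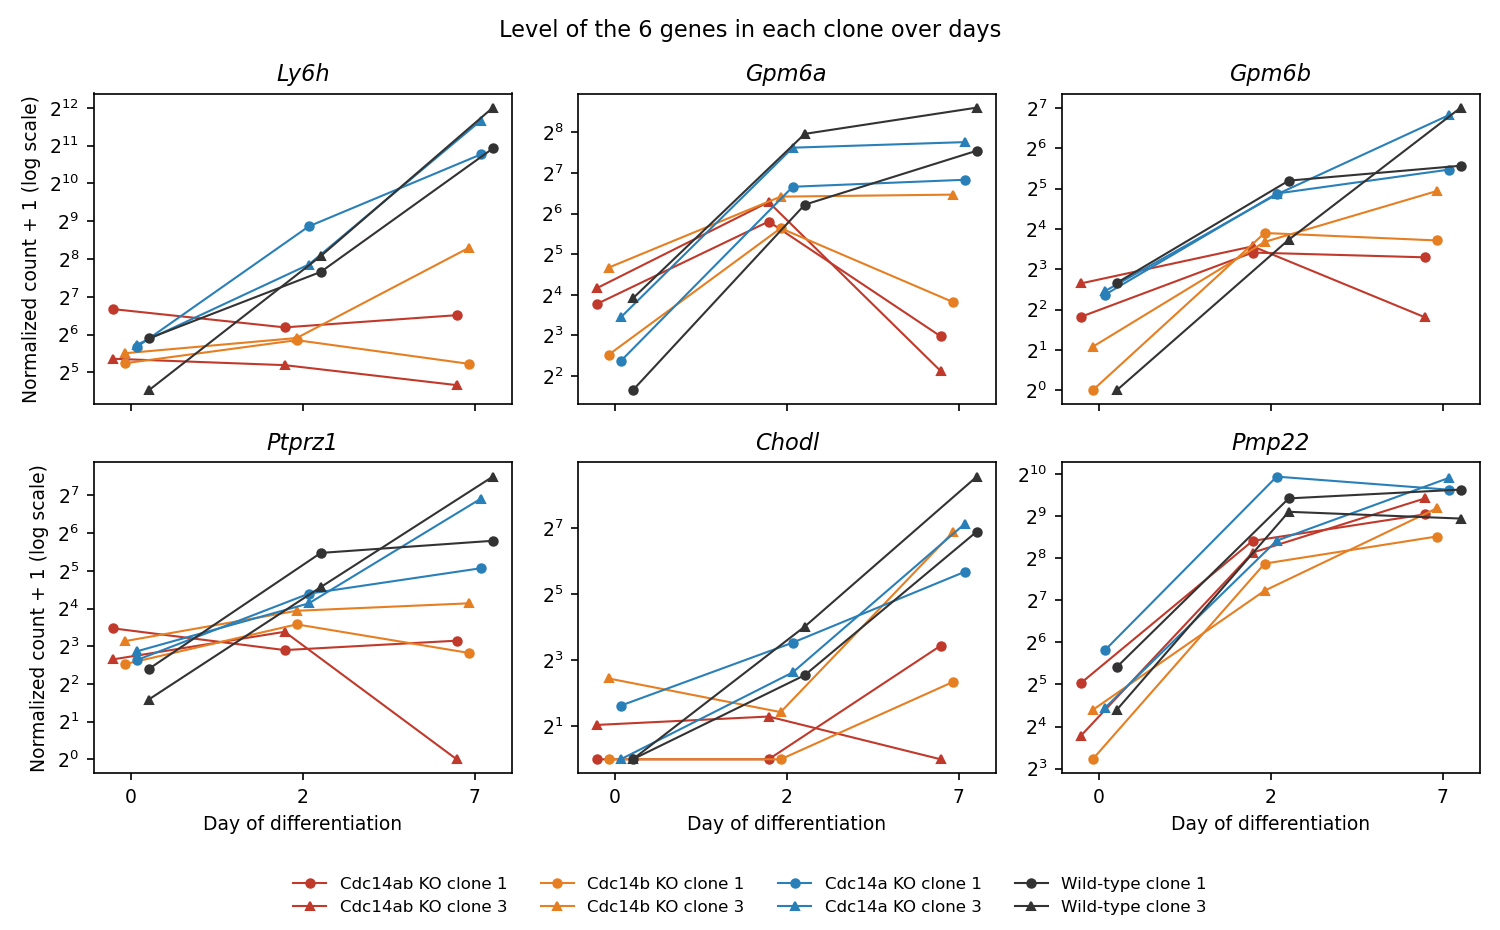
Normalized count + 1 (log2 axis) of the 6 genes at days 0, 2 and 7, with 1 line per clone (circles clone 1, triangles clone 3) and colours for genotypes. Ly6h of wild type and Cdc14a KO is at 1741 or more at day 7 while both Cdc14ab KO clones stay under 102 at every day, and Pmp22 is higher at days 2 and 7 than at day 0 in every line.

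Ly6h was low at day 7 wherever Cdc14b was missing and high in Cdc14a KO and wild type. It had 90.4 and 24.3 normalized counts in Cdc14ab KO clones 1 and 3 at day 7, 36.5 and 313 in Cdc14b KO, 1741 and 3239 in Cdc14a KO, and 1943 and 4111 in wild type. Both clones lacking both genes and both clones lacking Cdc14b lay below every Cdc14a KO and wild-type clone. The mean was 52.8-fold lower in Cdc14ab KO than in wild type (57.4 ± 46.7 against 3027 ± 1533, SD, n = 2 each), a log2 difference of -5.88. Both Cdc14ab KO clones lay below both wild-type clones for 22.7% of the 16158 genes that passed the filter, and both Cdc14b KO clones below both wild-type clones for 25.7%, which is the background to every such statement about day 7 below. The same shares at day 2 were 11.6% and 13.3%. Below both Cdc14a KO clones lay both Cdc14ab KO clones for 20.4% of genes at day 7 and 19.3% at day 2, and both Cdc14b KO clones for 25.3% and 20.8%. Both Cdc14ab KO clones lay below both Cdc14b KO clones for 13% at day 7 and 7.73% at day 2. The share of all genes with every clone lacking Cdc14b below every other clone was not counted at any day. No result is therefore drawn from such splits, here or below.

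The split was already present at day 2. Ly6h had 72.1 and 35.6 normalized counts in Cdc14ab KO, 56.8 and 59.1 in Cdc14b KO, 465 and 230.2 in Cdc14a KO, and 201 and 269 in wild type. The clones with and without Cdc14b did not overlap at that day either, and the share of all genes split in this way was not counted. Day 0 levels lay between 22.04 and 101 in all 8 lines and overlapped between Cdc14ab KO and wild type, with Cdc14ab KO clone 1 the highest. From day 0 to day 7 both Cdc14ab KO clones had lower values, by log2 -0.16 and -0.70, whereas both wild-type clones gained 5.03 and 7.48.

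Gpm6a, unlike Ly6h, was higher at day 2 than at day 0 in both double knockout clones, and was low again at day 7. It had 54.9 and 76.9 normalized counts in Cdc14ab KO at day 2, 48.8 and 84.5 in Cdc14b KO, 100.1 and 196 in Cdc14a KO, and 73.5 and 248 in wild type. Cdc14ab KO clone 3 exceeded wild-type clone 1 there, so those groups overlapped. By day 7 it had 6.88 and 3.36 in Cdc14ab KO, 13.2 and 87.4 in Cdc14b KO, 113 and 216 in Cdc14a KO, and 186 and 389 in wild type. Both Cdc14ab KO clones were then below their own day 0 values of 12.7 and 16.9, and the mean was 56.2-fold lower than in wild type (5.12 ± 2.49 against 288 ± 144, SD, n = 2 each). From day 2 to day 7 Gpm6a had changed by log2 -2.83 and -4.16 in the Cdc14ab KO clones, -1.81 and 0.05 in the Cdc14b KO clones, 0.17 and 0.14 in the Cdc14a KO clones, and 1.33 and 0.65 in wild type. Day 0 values were 4.75 and 24.4 in Cdc14b KO, 4.16 and 9.87 in Cdc14a KO, and 2.13 and 14.0 in wild type, which overlapped those of Cdc14ab KO in Cdc14b KO and in wild type.

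Its paralog Gpm6b was measured from fewer reads. At day 7 it had 8.84 and 2.52 normalized counts in Cdc14ab KO, 12.2 and 29.7 in Cdc14b KO, 43.4 and 112 in Cdc14a KO, and 46.5 and 128 in wild type. Groups lay in that order with no overlap between Cdc14ab KO and Cdc14b KO or between Cdc14b KO and Cdc14a KO, while Cdc14a KO and wild type overlapped. At day 2 it had 9.68 and 10.9 in Cdc14ab KO, 14.0 and 11.8 in Cdc14b KO, 28.5 and 28.0 in Cdc14a KO, and 35.8 and 12.3 in wild type. At day 0 no library exceeded 5.34 normalized counts, or 5 reads, so differences at that day rest on single reads.

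Ptprz1 was high at day 7 in wild type and low where Cdc14b was missing. Day 7 levels were 7.86 and 0 normalized counts in Cdc14ab KO, 6.08 and 16.6 in Cdc14b KO, 32.6 and 119.6 in Cdc14a KO, and 54.6 and 180.1 in wild type. The Cdc14b KO and Cdc14ab KO clones overlapped each other, and all 4 lay below every Cdc14a KO and wild-type clone. The Cdc14ab KO mean rested on 8 reads in all and was 29.9-fold lower than in wild type. At day 2 Ptprz1 had 6.45 and 9.43 in Cdc14ab KO, 10.96 and 14.4 in Cdc14b KO, 20.03 and 16.6 in Cdc14a KO, and 43.5 and 22.8 in wild type, an order without overlap between neighbours, where both Cdc14a KO clones lay below both wild-type clones for 10.6% of all genes. Day 0 ran the other way, with 10.1 and 5.28 in Cdc14ab KO and 4.27 and 2.004 in wild type, from at most 8 reads a library, and both Cdc14ab KO clones were above both wild-type clones for 20.8% of all genes at that day.

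Chodl was close to absent in stem cells and became high only by day 7. Wild type had no read in either clone at day 0, and the highest day 0 library, Cdc14b KO clone 3, had 4 reads. At day 2 there were 0 and 1.45 normalized counts in Cdc14ab KO, 0 and 1.69 in Cdc14b KO, 10.5 and 5.19 in Cdc14a KO, and 4.84 and 15.2 in wild type. At day 7 there were 9.82 and 0 in Cdc14ab KO, 4.05 and 115 in Cdc14b KO, 49.96 and 138 in Cdc14a KO, and 117 and 374 in wild type. The 2 Cdc14b KO clones differed from each other, clone 3 lying between the Cdc14a KO clones and clone 1 among the Cdc14ab KO clones. In wild type the day 7 mean was at least 79.2-fold higher than at day 0, counted against 3 reads in each day 0 library.

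Pmp22 was the exception at day 7. It had 529 and 687 normalized counts in Cdc14ab KO, 367 and 584 in Cdc14b KO, 795 and 965 in Cdc14a KO, and 796 and 493 in wild type, with the Cdc14ab KO and wild-type clones overlapping and a log2 difference of -0.06. Day 2 was different: 341 and 281 in Cdc14ab KO, 234 and 149 in Cdc14b KO, 987 and 342 in Cdc14a KO, and 689 and 552 in wild type. All 4 clones without Cdc14b lay below all 4 clones with it at that day, though Cdc14ab KO clone 1 and Cdc14a KO clone 3 nearly met. Starting levels were 8.31 to 55.1, lowest in Cdc14b KO clone 1 and highest in Cdc14a KO clone 1. The change from day 0 to day 2 was log2 3.39 and 4.37 in Cdc14ab KO, 4.66 and 2.84 in Cdc14b KO, 4.14 and 3.99 in Cdc14a KO, and 4.02 and 4.72 in wild type.

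Changes over the days are given for each clone with no test, in the single knockouts as in the other genotypes, since induction chose the genes. From day 0 to day 2 the clones of Cdc14b KO gained log2 3.12 and 1.75 for Gpm6a, 3.90 and 2.60 for Gpm6b, and 1.06 and 0.81 for Ptprz1. The clones of Cdc14a KO gained 4.29 and 4.18 for Gpm6a, 2.51 and 2.40 for Gpm6b, and 1.76 and 1.27 for Ptprz1. Gpm6b started from 0 and 1 reads in Cdc14b KO, so the size of its change depends on the pseudocount, as do the changes of Chodl.

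By day 7 the change of Ly6h from day 0 was log2 -0.014 and 2.79 in Cdc14b KO, against 5.10 and 5.93 in Cdc14a KO. For Gpm6a it was 1.30 and 1.80 in Cdc14b KO, against 4.47 and 4.32 in Cdc14a KO. For Ptprz1 it was 0.30 and 1.005 in Cdc14b KO, against 2.44 and 4.05 in Cdc14a KO. The clones of the 2 genotypes did not overlap in these changes. The clones did overlap for Gpm6b, at 3.72 and 3.86 in Cdc14b KO against 3.11 and 4.37 in Cdc14a KO. For Chodl they overlapped at 2.34 and 4.42 in Cdc14b KO against 4.05 and 7.12 in Cdc14a KO. For Pmp22 they overlapped at 5.30 and 4.80 in Cdc14b KO against 3.83 and 5.48 in Cdc14a KO. The share of all genes without overlap in such changes was not counted, so no result about the 6 genes is drawn from it.

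**Figure D2:**
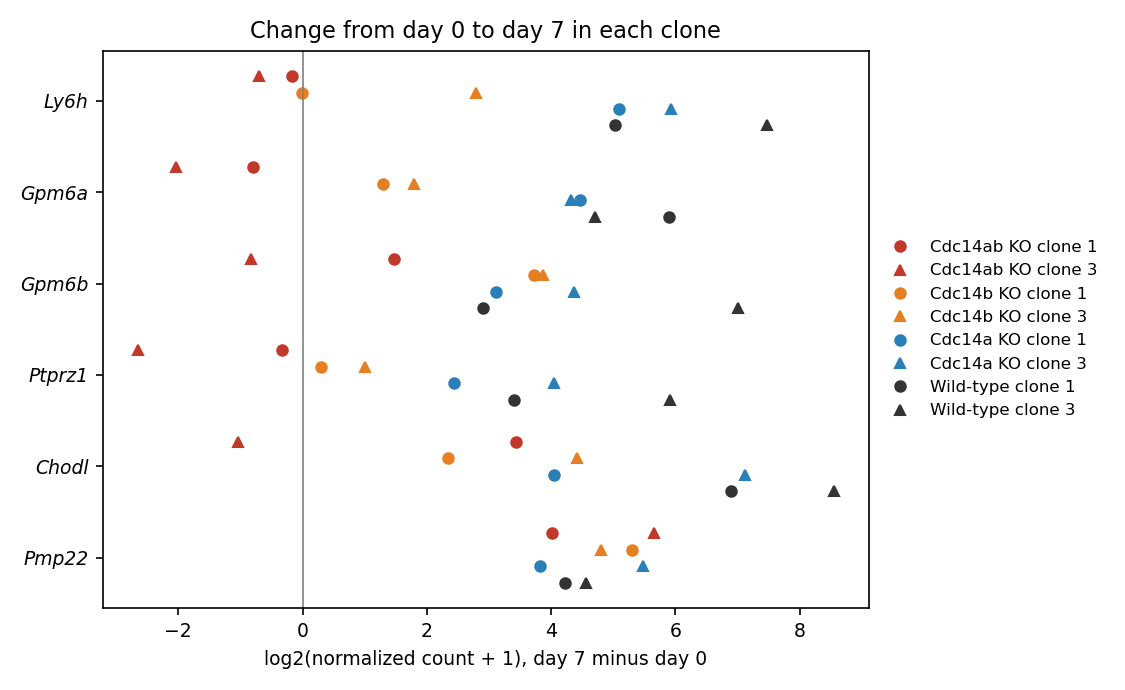
Change in log2(normalized count + 1) from day 0 to day 7 (x axis) of the 6 genes in each clone, with circles for clone 1 and triangles for clone 3 and 1 colour per genotype. Pmp22 lies between 3.83 and 5.65 in every clone, while Ly6h lies at -0.16 and -0.70 in Cdc14ab KO and at 5.03 and 7.48 in wild type.

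Whether the single knockouts differed from each other was tested at each day in the 12 single knockout libraries, with limma on log2 values, two-sided, adjusted over 15426 genes. All 6 genes passed the filter of 10 normalized counts in 2 libraries, Gpm6b, Ptprz1 and Chodl through differentiated libraries alone. At day 7 Ly6h was lower in Cdc14b KO than in Cdc14a KO by 4.45 ± 0.76 on the log2 scale (174.8 ± 196 against 2489.9 ± 1059 normalized counts, SD, n = 2 each, limma adjusted p = 0.036), with both Cdc14b KO clones below both Cdc14a KO clones. It was 1 of the 40 genes called lower, 0.259% of all tested, and had been chosen with these libraries in view. The remaining differences did not pass: -2.51 for Ptprz1 (95% interval -4.03 to -0.996, adjusted p = 0.10), -2.15 for Gpm6a (-4.02 to -0.28, adjusted p = 0.24), -1.82 for Gpm6b (-3.30 to -0.34, adjusted p = 0.21), -1.80 for Chodl (-4.65 to 1.06, adjusted p = 0.55) and -0.92 for Pmp22 (-2.16 to 0.32, adjusted p = 0.46). All 6 means were thus lower in Cdc14b KO, and both its clones lay below both Cdc14a KO clones for 5 of the 6 genes, Chodl excepted, as they did for 25.3% of all genes.

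The Ly6h difference depended on single libraries. Without Cdc14b KO clone 1 it was -2.92 (adjusted p = 0.11), without Cdc14a KO clone 1 -4.90 (adjusted p = 0.14), without Cdc14a KO clone 3 -4.01 (adjusted p = 0.14), and with all 24 libraries in the fit adjusted p was 0.10. Without Cdc14b KO clone 3 it was -5.99 (adjusted p = 0.00028) and Gpm6a was called too, at -3.47 (adjusted p = 0.048). An exact permutation test of 2 clones against 2 cannot give a p below 0.33.

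None of the 6 genes passed between the single knockouts at day 0 or day 2, where limma called 1 gene (0.00648%) of 15426 at each day. The Ly6h difference at day 2 was -2.48 (95% interval -4.14 to -0.82, adjusted p = 0.49). The test of whether the change from day 0 to day 7 itself differed gave no call among all genes (0%, 1800 at an unadjusted p under 0.05 with limma, and 184 adjusted calls with DESeq2). Its estimate for Ly6h was -4.13 ± 1.07 (adjusted p = 0.23 with limma and 0.018 with DESeq2). Ptprz1 was at -2.59 (limma adjusted p = 0.36) and Gpm6a at -2.84 (limma adjusted p = 0.40). Their unadjusted 95% intervals left out 0, but neither passed. For Gpm6b, at 0.05, and Pmp22, at 0.40, the intervals ran from -2.04 to 2.15 and from -1.35 to 2.15. This test, too, is of genes chosen for induction with these libraries in view.

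**Figure D3:**
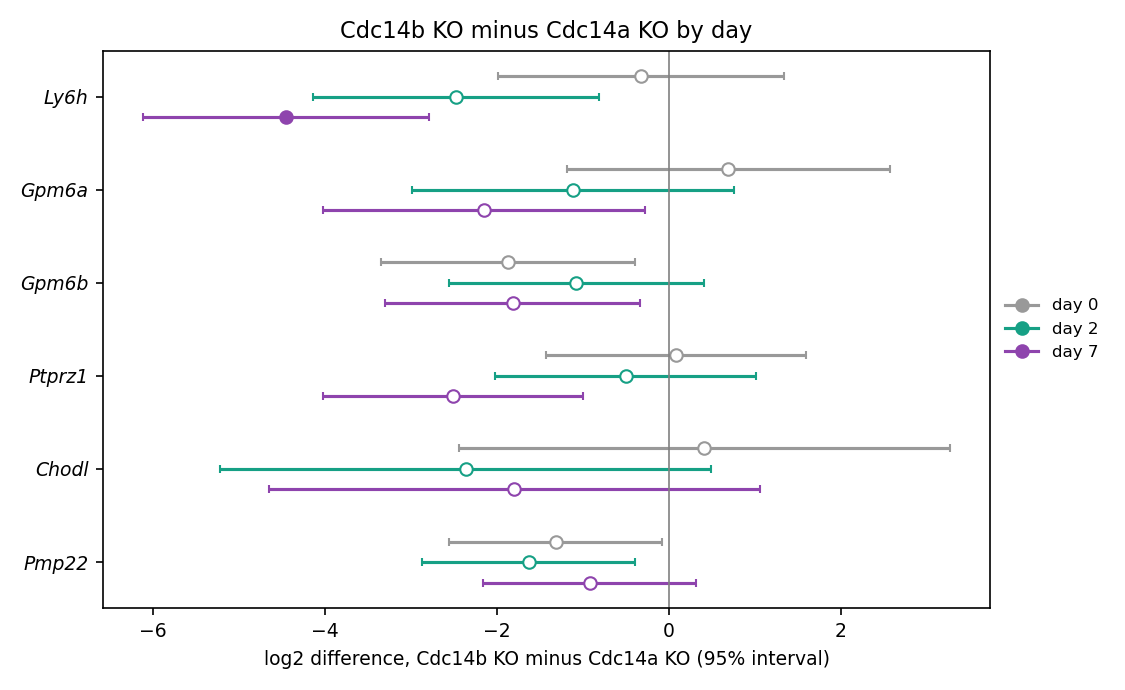
Fitted log2 difference, Cdc14b KO minus Cdc14a KO, for the 6 genes at days 0, 2 and 7 with 95% intervals (2 clones each). Filled points have adjusted p under 0.05, and the Ly6h difference at day 7, at -4.45, is filled while the others are open.

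Genes of related families and of cell types, leaving the 6 genes out, were compared between Cdc14ab KO and wild type at day 7, in a limma fit of all 24 libraries that called 13 genes higher and 234 lower (0.0805% and 1.45% of 16158). The lists were chosen with earlier results of these data known, so their counts are not independent of the choice. Neuron markers had 10 of 16 tested genes lower and none higher, with a median log2 difference of -2.89 against 0.02 for all genes. Among them were Map2, a microtubule protein of dendrites, at -4.17 ± 0.77 (87.4 and 52.9 normalized counts in Cdc14ab KO, against 650.0 and 2377 in wild type, adjusted p = 0.016), the transcription factor Onecut2 at -3.15 (adjusted p = 0.021), and Elavl4, an RNA-binding protein of neurons, at -3.58 ± 0.74 (adjusted p = 0.024). Neural progenitor markers had 4 of 16 lower, with a median of -1.94: Hes5, a Notch target, at -5.01, Dach1 at -4.32, Sox3 at -3.74 and Slc1a3 at -2.60.

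Neural adhesion and surface genes had 6 of 27 lower and none higher, with a median of -2.19. Among them were Chl1, a relative of L1, at -4.83 ± 0.86 (17.7 and 6.71 normalized counts in Cdc14ab KO, against 239.5 and 481 in wild type), Cadm3 at -3.73, Nrcam at -3.27, Tenm3 at -2.51 and Cd24a at -2.33. Of 12 other receptor tyrosine phosphatases 1 was lower, Ptprd, at -4.22 ± 0.78 (33.4 and 7.55 in Cdc14ab KO, against 229 and 444 in wild type, adjusted p = 0.016). Of 12 ligands and partners of Ptprz1 1 was lower, the adhesion protein Nrcam. Of the ligands, named here after their values were seen, Ptn had 176 and 29.4 in Cdc14ab KO against 441 and 400 in wild type and did not pass, and Mdk, a related ligand, had 1175 and 1443 against 1071 and 1741.

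In the families of the other members none of 11 Ly6 and uPAR genes, 5 PMP22 and EMP genes, 6 C-type lectin membrane genes, 10 myelin genes or 6 glia markers passed in either direction. Leaving out clone 3 of Cdc14ab KO, or clone 3 of wild type, at day 7, no gene at all was called in this comparison, and the same held when only the 4 libraries compared were fitted. Without Cdc14ab KO day 7 clone 1, 517 genes were called, with 8 neuron markers and 7 adhesion genes lower.

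Other cell types were measured beside these counts. The sum of the 16 neuron markers at day 7 was 1514 and 1598 normalized counts in Cdc14ab KO, 1552 and 3171 in Cdc14b KO, 4038 and 8553 in Cdc14a KO, and 4528 and 13176 in wild type, the same order of group means as Ly6h, with Snap25 at 0 in both Cdc14ab KO clones and in Cdc14b KO clone 1. Such sums weigh high genes most and do not count cells. Tubb3 alone had 477 and 906 in Cdc14ab KO and 1088 and 2730 in wild type. At day 0 Tubb3 already had 3098 and 1120 in Cdc14ab KO and 672 and 874 in wild type. The 16 pluripotency markers summed to 29391 and 19005 in Cdc14ab KO, 32381 and 22881 in Cdc14b KO, 21317 and 19105 in Cdc14a KO, and 17453 and 12259 in wild type, with none passing, none at 0 and a median log2 difference of 0.88 between Cdc14ab KO and wild type. The 11 trophectoderm markers summed to 12277 and 48280 in Cdc14ab KO, 10988 and 7062 in Cdc14b KO, 12594 and 12678 in Cdc14a KO, and 9729 and 7335 in wild type, with none of them passing and none at 0. The 15 feeder fibroblast markers summed to 6358 and 2673 in Cdc14ab KO, 3227 and 3484 in Cdc14b KO, 7573 and 5792 in Cdc14a KO, and 8469 and 5068 in wild type, with none passing and Lum at 0 in Cdc14ab KO clone 3. The 11 neural crest markers summed to 241 and 250.1 in Cdc14ab KO, against 521 and 1179 in wild type, with 1 of the 10 tested, Ednrb, lower. Their part in the levels of the 6 genes was not tested.

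**Figure D4:**
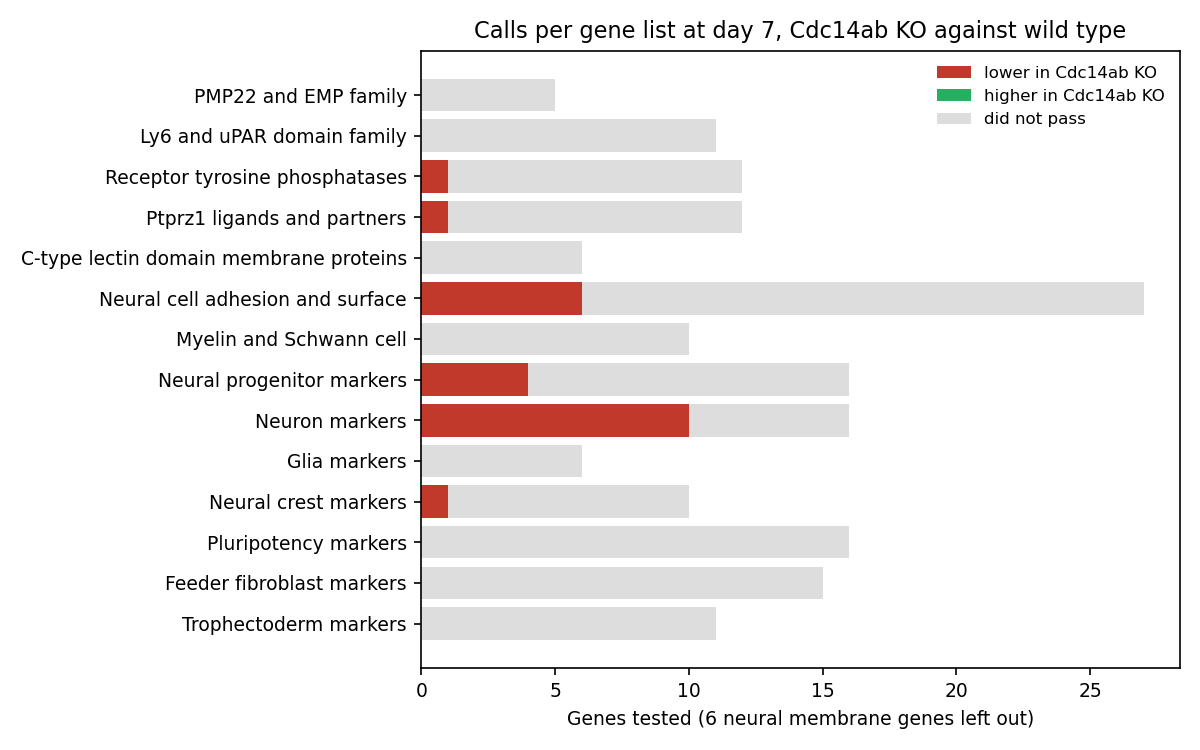
Genes tested in each list at day 7 (bar length) and those called lower (red) in Cdc14ab KO against wild type, limma adjusted p under 0.05, with the 6 genes left out. No gene of these lists was called higher, and neuron markers have 10 of 16 in red. The lists were chosen with earlier results of these data known.

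In the single knockouts genes of the same lists changed with the days, in a comparison that called 12.6% of all genes higher and 9.43% lower. From day 0 to day 7, 9 of 23 adhesion genes rose and none fell, with Chl1 at 4.83 ± 0.61 and Nrxn3 at 4.74 ± 0.66 (log2, SE) among them, and 3 of 10 ligands and partners of Ptprz1 rose, Ptn at 3.91, Ncam1 at 2.42 and Mdk at 1.24. The adhesion count was 4 without Cdc14a KO day 7 clone 3 and 5 without Cdc14b KO day 7 clone 3. Neuron markers had 4 higher and 1 lower of 16, Dcx at 6.02 and Neurod1 at -2.11 being the ends. Their median was -0.03, against 0.007 for all genes. In Cdc14a KO alone 6 were higher and 0 lower, with a median of 0.98, where 8.4% of all genes were called higher. In Cdc14b KO alone 2 were higher and 1 lower, with a median of -0.73, where 3.23% of all genes were called higher. Neural progenitor markers had 5 higher and 1 lower of 15, led by Irx3 at 4.10. Neural crest markers had 4 higher and 1 lower of 10, Ednrb at 5.07 the highest, and pluripotency markers 5 lower of 16. Of the 9 myelin genes 2 rose, Mal and Mbp, and 2 fell, Myrf and Prx, and none of the 5 PMP22 and EMP genes passed. Feeder markers had 5 of 15 higher and trophectoderm markers 6 of 11, so that lists of several cell types held genes that rose. Between Cdc14b KO and Cdc14a KO at day 7 the 1 call in these lists was the glial gene Olig1, lower by 4.35 in Cdc14b KO, and it was lower already by 5.71 at day 0 (adjusted p = 0.00050) and by 5.30 at day 2 (adjusted p = 0.0013).

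Genes with a pattern most like each member were ranked by Pearson's r of log2 values over the 24 libraries, among 10979 genes with a mean of at least 20 normalized counts. These libraries share genotypes and days, so r describes them and carries no p. Ptprd led for Chodl (r = 0.97) and was the first also by Spearman's rho (0.95) and over the 12 single knockout libraries (r = 0.98). It had 33.4 and 7.55 normalized counts in Cdc14ab KO at day 7, 27.3 and 115 in Cdc14b KO, 135 and 257 in Cdc14a KO, and 229 and 444 in wild type, so the Cdc14b KO clones split as for Chodl. For the remaining members the first gene was Chd3, a chromatin remodeller, for Ly6h (0.95), Slc35f1 for Gpm6a (0.95), the giant cadherin Fat3 for Gpm6b (0.92), the endosomal protein gene Nsg2 for Ptprz1 (0.92) and the kinase Nuak1 for Pmp22 (0.95). Of the first 5 genes of each member, 1 to 3 remained with Spearman's rho and 0 to 2 over the single knockout libraries. Among the members, r over 24 libraries was highest for Ly6h with Ptprz1 (0.90) and Ly6h with Chodl (0.89), and Pmp22 had 0.51 to 0.80 with the others, Ptprz1 the lowest and Gpm6b the highest.

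**Figure D5:**
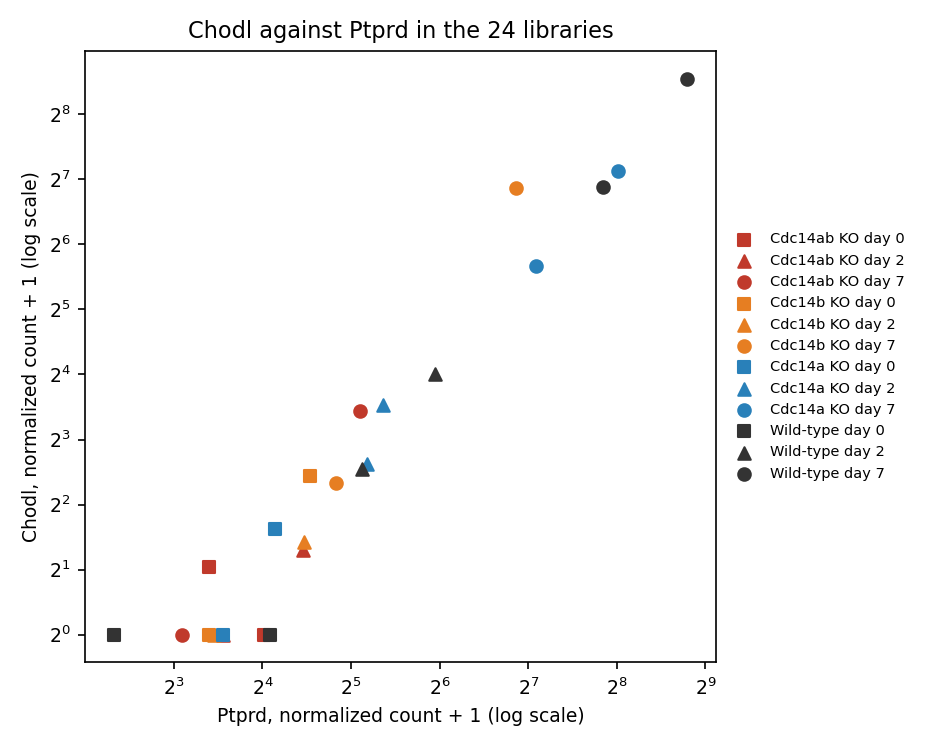
Chodl against Ptprd in the 24 libraries, normalized count + 1 on log2 axes, coloured by genotype with squares, triangles and circles for days 0, 2 and 7. Wild type, Cdc14a KO and 1 Cdc14b KO clone at day 7 lie at the upper right, with Ptprd at 115 to 444, and the Cdc14ab KO day 7 libraries lie among those of days 0 and 2.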

How the data were processed

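The 24 QuantSeq 3′ libraries keep the strand and were counted by strand, per the labels' protocols. Per the submitters' processing notes the genome was GRCm38 and the tools were HTSeq 0.6.1, TopHat2 2.0.10 with Bowtie 1.0.0, DESeq2, FastQC 0.11.7 and SAMtools 0.1.19. Their other settings are not given in the sources used here. As deposited by the authors, the gene signal is a read count divided by a size factor of its library. In the low values 100% were whole reads within 0.001, so reads (6422883 to 10856721 a library) were recovered. Of the symbols 17473 (99.6%) matched GENCODE M21.

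Members and lists were chosen with earlier results of these data known. Tests used limma 3.58.1 in R 4.3.3 on log2(normalized count + 1), with trend and robust variance, genes with at least 10 normalized counts in 2 libraries of the fit, Benjamini-Hochberg adjustment over all genes and a threshold of 0.05. Member tests, between the single knockouts, used their 12 libraries (6 groups, 6 residual degrees of freedom), and comparisons of lists between Cdc14ab KO and wild type used all 24. Alternatives were pseudocounts of 0.25 and 5, no filter or a filter of 50, TMM, tests on recovered reads by DESeq2 1.42.0 or edgeR 4.0.16, a replicate block, other sets of libraries and each library left out. In the edgeR test of Cdc14b KO against Cdc14a KO at day 7, 43 genes were called. Figures were drawn with matplotlib 3.10.9.

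Clones of 1 line are paired across days because a clone is the same cell line at each day. Deviations of a line on 2 days correlated at -0.12 to 0.25. No clones of a group were the same library, with chi-square per gene of 26.0 to 156. Genes named beside the 6 were, in each list, up to 4 with the smallest p in the comparison, and for each member the gene with the most similar pattern. Some genes of the lists are not reported here by name.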

Additional observations from a re-analysis of the deposited data

Results flagged for a closer look

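In several comparisons both Cdc14ab KO clones moved one way over the days while both clones of another genotype moved the opposite way. The difference was not tested in any of these cases, and the share of all genes with such opposite changes was not counted. Genes named here were chosen for induction with these libraries in view, so no result is drawn from these cases. Ly6h changed by a mean log2 of -0.33 in Cdc14ab KO from day 0 to day 2, with both clones of Cdc14b KO, of Cdc14a KO and of wild type higher. From day 0 to day 7 Ly6h changed by -0.43 in Cdc14ab KO, with both clones of Cdc14a KO and of wild type higher. In Cdc14ab KO clone 1 the Ly6h reads were 80 at day 0 and 92 at day 7, so the lower value there came with the size factors. That day 0 library held 8.70% Gm42418 reads. Gpm6a changed by -1.42 (-1.415) in Cdc14ab KO from day 0 to day 7, against rises in both clones of Cdc14b KO, of Cdc14a KO and of wild type. From day 2 to day 7 Gpm6a changed by -3.49 and Gpm6b by -0.94 in Cdc14ab KO, with both clones of Cdc14a KO and of wild type higher. Gpm6b had 9 reads on both days in Cdc14ab KO clone 1, and 15 then 3 reads in clone 3. Ptprz1 changed by -1.49 in Cdc14ab KO from day 0 to day 7, with both clones of Cdc14b KO, of Cdc14a KO and of wild type higher. Cdc14ab KO clone 1 had 8 Ptprz1 reads on both days, and clone 3 had 5 then 0, so this change rests on few reads.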

How the results depend on the processing

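Of 822 alternative values for single genes of the 6, 757 kept their direction and side of the threshold, 30 lost a call, 16 gained one and 19 reversed, and 448 of 1845 list counts moved by over 1.5 times. The cause was not tested. The 822 values include changes over days, for which the genes were chosen, and comparisons with no call to lose. The share that kept its side is therefore no measure of how firm the calls are. Counts of the 6 genes over days describe genes chosen for induction. Such calls follow from the choice, so they are no test of the 6 genes and support nothing. From day 0 to day 2 in the single knockouts (620 genes, 3 of the 6) DESeq2 called 1266, the replicate block, which pairs clones of 1 line, 1075, and the fit without libraries rich in Gm42418 26 (1 of the 6). The same libraries left out gave 2064 genes from day 0 to day 7 (3401), 307 from day 2 to day 7 (1133) and 143 in Cdc14b KO from day 0 to day 7 (918). From day 2 to day 7 DESeq2 called 1830, and of the 6 genes 0 were called with pseudocount 0.25, a filter of 50 or without those libraries, and 2 with pseudocount 5, edgeR, DESeq2 or the block. Between Cdc14b KO and Cdc14a KO at day 0 (1 gene) no filter gave 4, DESeq2 5, all 24 libraries 2 and the fit without Gm42418-rich libraries 0. At day 2 (1 gene) these gave 2, 40 (1 of the 6), 0 and 0. At day 7 (112) edgeR gave 43, DESeq2 727 (2 of the 6), the block 318 (2 of the 6, Gpm6a added) and all 24 libraries 0 (0 of the 6); numbers there are only shared between genotypes, where deviations of clones with 1 number correlated at 0.24 to 0.35, and Gpm6a had adjusted p = 0.048 with the block. The interaction had 184 with DESeq2 (1 of the 6). Cdc14b KO from day 0 to day 7 had 1495 with DESeq2, and 1 of the 6 with a filter of 50. Cdc14ab KO against wild type at day 7 (247) had 163 with a filter of 50, 650 with DESeq2, 376 with the block and 0 with only the 4 libraries. With 1 library left out, counts ran from 127 to 773 (2 to 3 of the 6) for day 2 against day 0, 2068 to 3267 (5 to 6) for day 7 against day 0, 355 to 1008 (0 to 2) for day 7 against day 2, 1 to 1 (0), 0 to 3 (0) and 0 to 503 (0 to 2) between Cdc14b KO and Cdc14a KO at days 0, 2 and 7, 0 to 54 (0 to 1) for the interaction, 529 to 1524 (2 to 6) in Cdc14a KO, 278 to 534 (1 to 4) in Cdc14b KO and 0 to 517 between Cdc14ab KO and wild type. A group left with 1 clone was assumed to vary like the others. Reversed values, all at adjusted p of 0.67 or more, were as follows. Gpm6a from day 2 to day 7 ran from -1.02 to 0.30 (the highest without Cdc14b KO day 7 clone 1) over fits with 1 library left out. Cdc14b KO minus Cdc14a KO at day 0 ran over such fits from -0.38 to 1.76 for Gpm6a, -0.22 to 0.39 for Ptprz1 and -0.81 to 1.63 for Chodl, the lowest without Cdc14b KO clone 3, which is also the fit without Gm42418-rich libraries, and was -0.036 for Ptprz1 without Cdc14a KO clone 1 and -0.40 for Chodl without Cdc14a KO clone 3. At day 7 Chodl ran from -4.06 to 0.47, the highest without Cdc14b KO clone 1. The interaction of Gpm6b was -0.87 with pseudocount 5, -0.49 without Cdc14b KO day 0 clone 1, -0.56 without Cdc14b KO day 7 clone 3 and -0.62 without Cdc14a KO day 7 clone 1 (highest 0.73), that of Pmp22 -0.19 without Cdc14b KO day 0 clone 1 and -0.29 without Cdc14a KO day 0 clone 1 (highest 1.08), and that of Chodl 0.055 (lowest -4.47) without Cdc14b KO day 7 clone 1. In Cdc14b KO from day 0 to day 7 Ly6h ran from -0.15 to 2.92 and Ptprz1 from -0.0057 to 1.31, lowest without day 7 clone 3 and highest without day 7 clone 1. At day 0, Gpm6b and Chodl had at most 5 reads a library and Ptprz1 at most 8, so depth limits their changes from day 0.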
